A study of Rattus norvegicus with 50 samples.

Results

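The genes of the aminoacyl-tRNA synthetases were followed in the livers of 50 rats. They were found by symbol in the gene table of the array: a capital letter, then ars, then nothing, 1 or 2, with Eprs1, Farsa and Farsb added. The rule found 32 genes of the 14217 that had a probe set with 1 symbol, and each gene is represented by its probe set with the highest mean over the 50 arrays. Of these, 19 encode cytosolic enzymes and 13, whose symbols end in 2, encode mitochondrial ones. Gars1 and Kars1 encode the enzyme of both compartments and are counted with the cytosolic genes. The rule reads symbols and no measured value, though the gene family itself was chosen with earlier results of these data known.

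Each synthetase joins 1 amino acid to its matching tRNA, and the ribosome then takes the amino acid from that tRNA. The cytosolic enzymes serve translation of nuclear messages, and the mitochondrial enzymes, which are also made in the cytosol and then imported, serve the few proteins encoded by mitochondrial DNA. The transcription factor Atf4, which is translated when kinases that sense uncharged tRNA or misfolded protein phosphorylate the initiation factor eIF2, is known to switch on many cytosolic synthetase genes together with genes of amino acid synthesis and transport. In liver this matters for the export of plasma proteins such as albumin.

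The rats were female Brown Norway animals (Bn/Crl strain 091, MHC haplotype RT1n) aged 9 to 11 weeks, with 1 array per liver. Combination rats received nevirapine, an oral antiretroviral drug that inhibits reverse transcriptase, at 150, then 100 and then 75 mg/kg for 7 d. They then received 1 intraperitoneal dose of galactosamine at 750 mg/kg, with nevirapine continued, and livers were taken 3 h, 24 h, 48 h and 8 d after the galactosamine dose. Galactosamine is an amino sugar that injures hepatocytes by trapping uridine nucleotides. Galactosamine rats received that dose and sham oral doses and were sampled at the same 4 times. Nevirapine rats received the oral drug and a sham injection and were sampled 3 h, 24 h, 48 h and 15 d after the first dose. Those at 15 d received 150, then 100 and then 75 mg/kg over the 15 d. The labels do not state separately the doses of those at 3 h, 24 h and 48 h. Vehicle rats received sham doses only and were sampled at 3 h, 24 h, 48 h, 8 d and 15 d. Each group held 3 rats, except galactosamine at 48 h with 2. The study asked what happened over the 8 d in which co-administration, and neither drug alone, produced fibrosis. Time since the last oral dose was 2 h in all groups except those at 3 h, where it was 5 h in combination, galactosamine and vehicle rats and 3 h in nevirapine rats. At 3 h to 48 h the combination rats had had a week more of nevirapine than the nevirapine rats, so these groups are not matched in dosing.

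All signals are log2 values, so that a difference of 1 is a doubling, and a level is never set against that of another probe set. The arrays were close to each other in scale, with medians of 4.954 to 5.093 over all probe sets, and their mean correlation with arrays of the same group was 0.979 to 0.997. Of the 32 genes, 30 stayed above 4.37 in all 50 arrays, the background level used here, set by the brightest on average of 27 probe sets for bacterial spike-in genes; the lowest values were 3.41 for Vars2 and 3.94 for Nars2. Hepatocyte markers were high in all groups, with group means of 12.69 to 13.05 over 11 of 12 listed genes. RNA came from whole liver, so fewer cells of a type and less RNA per cell cannot be told apart. A gene was called changed where limma's adjusted p over all 14217 genes was under 0.05, and the share of all genes called in the same direction is given as the background where a comparison's count first appears.

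Promoters were searched for 2 short motifs. RefSeq (build GRCr8) gave a 300-base window, 250 bases before the start and 50 after, for 30 of the 32 genes, and not for Gars1 and Rars1. The element TGATGNAA, to which Atf4 binds with a C/EBP partner, was searched on both strands. It lay in 7 of 17 cytosolic windows (41.2%) and in 0 of 13 mitochondrial windows, against 3.98% of 33469 windows of all genes. Among 29 genes of the Atf4 amino acid response it lay in 6 (20.7%). The 7 synthetase genes that carry it include 4 of the genes with the largest changes below. The carriers Aars1, Mars1 and Tars1 changed less at 24 h after galactosamine, while Sars1 and Wars1 changed much and lack the element in their windows. Stretches around the element are shown for 6 of the 7. They are written 5′ to 3′ on the gene's strand, and capitals mark the element or its reverse complement.
Cars1: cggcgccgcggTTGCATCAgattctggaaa
Nars1: cctaggtgatcTGATGCAAcgcttcagtca
Iars1: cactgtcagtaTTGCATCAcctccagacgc
Yars1: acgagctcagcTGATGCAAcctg
Mars1: gcccgttccggTTGCATCAgcgtgggctcc
Tars1: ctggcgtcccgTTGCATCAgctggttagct
The Cars1 stretch lies at chr1:208225334-208225363 on the minus strand, with the first base of the element 18 bases after the start. That of Nars1 is at chr18:60275778-60275807 on the minus strand, 14 bases before the start. Those of Iars1 (chr17:15193658-15193687), Mars1 (chr7:65023752-65023781) and Tars1 (chr2:62114811-62114840) are also on the minus strand, 24, 17 and 27 bases before the start. Yars1 has its copy on the plus strand at chr5:146820190-146820212, 39 bases after the start. All of the copies shown have the same 8 letters once strand is taken into account. The palindrome CACGTG, the E-box bound by Myc and related factors, overlaps none of these elements and lay in 6 of the 30 windows (20.0%), those of Aars1, Farsb, Iars1, Tars1, Vars1 and the mitochondrial Ears2, against 6.42% of all windows. These matches describe letters in a window and were not tested as binding sites.

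Against vehicle, each of the 32 genes was called in at least 1 of 12 comparisons. Nars1, which charges asparagine, rose in 7 of them, and the cytosolic Hars1 and Wars1 and the mitochondrial Yars2 rose in 6 each. Rises and falls were both called in 12 genes, 14 genes never fell and 6 never rose. The mean of the 19 cytosolic genes was 8.03, 8.03 and 8.09 in the 3 galactosamine rats at 3 h and 8.93, 9.05 and 9.14 at 24 h, against 8.05 to 8.35 over all vehicle rats. The mean of the 13 mitochondrial genes was 6.13 to 6.18 in galactosamine rats at 3 h and 6.25 to 6.58 at 24 h, against 6.23 to 6.55 over all vehicle rats. Cytosolic genes thus stood apart from all vehicle rats at 24 h and mitochondrial genes as a group did not.

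**Figure D1:**
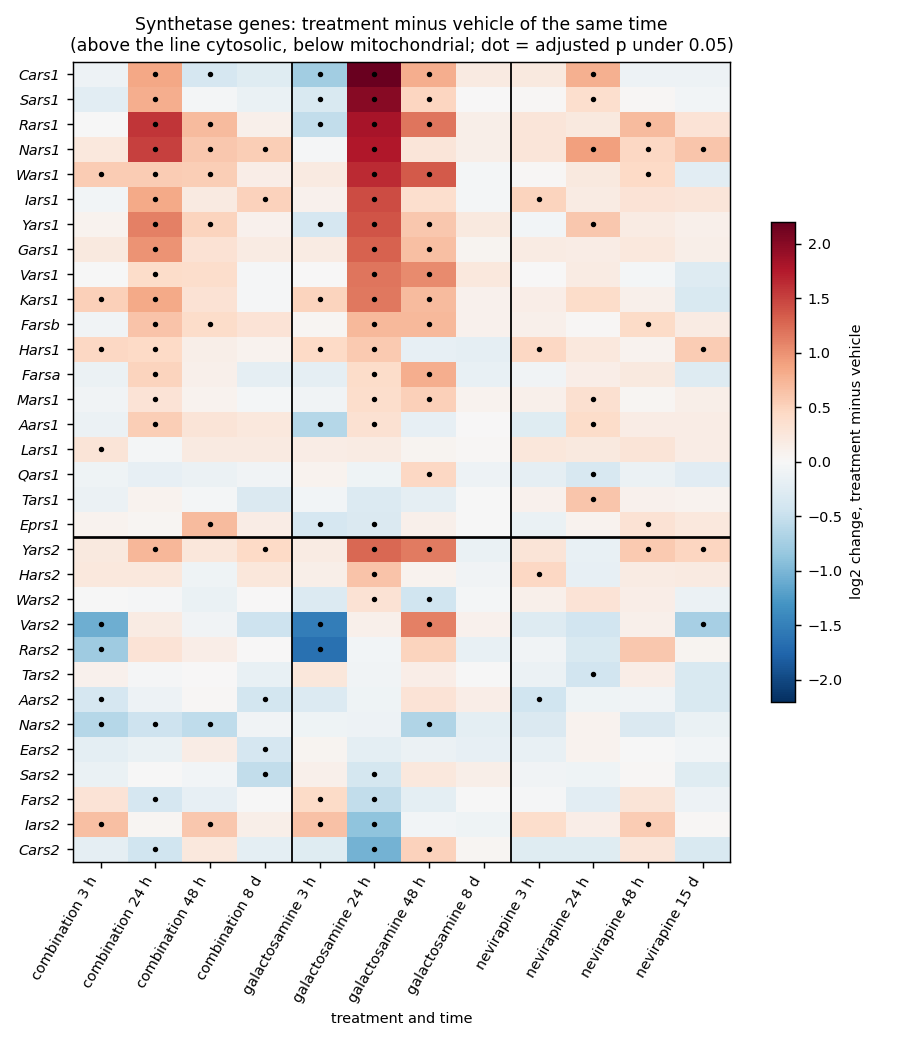
Log2 change of each synthetase gene (rows) in each treatment group minus vehicle of the same time (columns), with red for higher and blue for lower and a dot where limma's adjusted p was under 0.05; the combination at 8 d is set against vehicle at 15 d. The cytosolic block is reddest at 24 h after galactosamine, where Cars1 is 2.18 higher, while Rars2 and Vars2 are the bluest cells at 3 h.

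**Figure D2:**
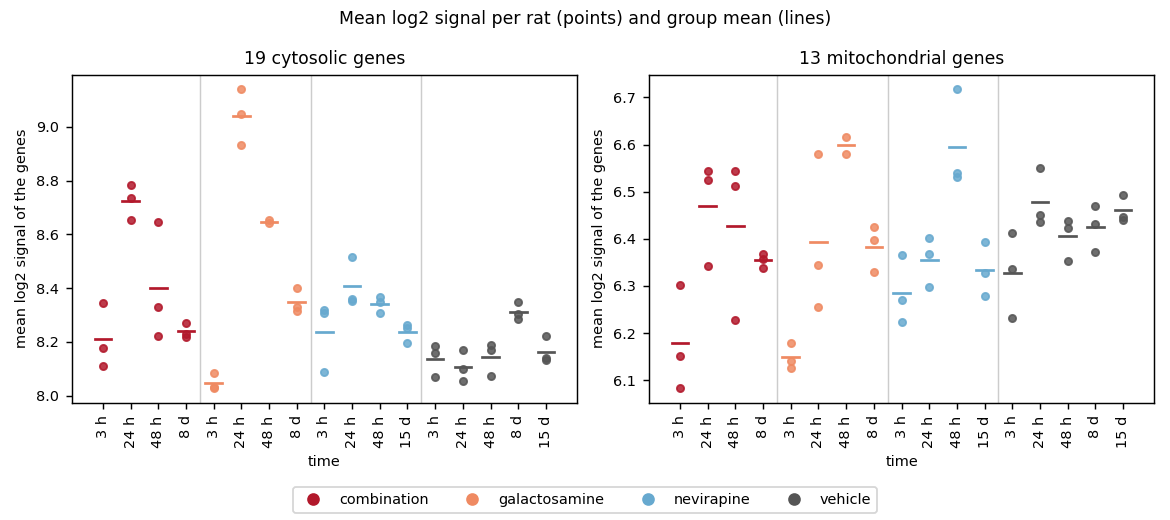
Mean log2 signal of the 19 cytosolic (left) and 13 mitochondrial genes (right) in each rat (points) with the group mean (lines), by treatment and time. Galactosamine at 24 h has the highest cytosolic means, 8.93 to 9.14, while its mitochondrial means of 6.25 to 6.58 overlap those of vehicle rats.

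At 3 h after galactosamine falls outnumbered rises among the synthetase genes, as they did over all genes. Of the 32 genes, 4 rose and 8 fell, against backgrounds of 14.9% and 18% of all genes; 6 of the 8 falls were cytosolic. Cars1, which charges cysteine, had 6.80, 6.48 and 6.78 in galactosamine rats, against 7.44, 7.37 and 7.56 in vehicle rats, a change of -0.77 ± 0.13 (SE, adjusted p = 9.58e-06). Aars1, the alanine enzyme, had 9.78, 9.70 and 9.69 in galactosamine rats, against 10.54, 10.33 and 10.18 in vehicle rats, and fell by 0.63. Rars1, the arginine enzyme, had 7.90, 7.74 and 7.71 in galactosamine rats, against 8.33, 8.19 and 8.45 in vehicle rats. All galactosamine values of these genes lay below all vehicle values. Yars1, Eprs1 and Sars1 fell by 0.37, 0.37 and 0.34, while Kars1 and Hars1 rose by 0.49 and 0.43.

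The largest falls at 3 h were mitochondrial. Rars2, the mitochondrial arginine enzyme, had 5.21, 5.50 and 5.22 in galactosamine rats, against 6.85, 6.95 and 7.03 in vehicle rats, which is 3.11-fold lower (log2 change -1.64 ± 0.23, adjusted p = 3.41e-07). Vars2, the mitochondrial valine enzyme, had 4.08, 3.41 and 3.65 in galactosamine rats, against 5.35, 5.10 and 5.28 in vehicle rats. All 3 galactosamine values of Vars2 lay under the background level of 4.37, so it was at least 1.83-fold lower (adjusted p = 1.56e-07). Iars2, the mitochondrial isoleucine enzyme, went the other way, with 8.14, 8.09 and 7.95 in galactosamine rats, against 7.46, 7.22 and 7.57 in vehicle rats, and Fars2 rose by 0.42. Macrophage and Kupffer cell markers rose in 9 of 10 genes in the same rats, with mean levels of 8.08 to 8.24 against 6.74 to 7.72 in vehicle rats, and hepatocyte markers fell in 2 of 11; their part in these changes was not tested. The difference between 3′ and 5′ GAPDH probe sets, a sign of RNA quality, averaged 0.17 in galactosamine rats and 0.40 in vehicle rats at 3 h, and with it as a covariate 4 genes rose and 8 fell.

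At 24 h after galactosamine most cytosolic synthetase genes were far above vehicle. Of the 19 cytosolic genes 15 rose and 1 fell, with a median change of 1.15, against a median of -0.07 over all genes. Of the 13 mitochondrial genes 3 rose and 4 fell, with a median of -0.10. Over the 32 genes this makes 18 rises and 5 falls, where 30.2% of all genes rose and 28.5% fell. Cars1 had 9.51, 9.64 and 9.09 in galactosamine rats, against 7.15, 7.23 and 7.34 in vehicle rats, and so was 4.52-fold higher (log2 2.18 ± 0.13, adjusted p = 3.25e-17). Sars1, the serine enzyme, had 9.98, 9.92 and 10.10 in galactosamine rats, against 7.90, 8.07 and 8.03 in vehicle rats, a rise of 2.00 ± 0.11 (adjusted p = 2.1e-18). Both genes differed between the groups by many times the spread within them.

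Arginine, asparagine and tryptophan enzymes followed. Rars1 had 10.18, 10.08 and 10.26 in galactosamine rats, against 8.31, 8.55 and 8.21 in vehicle rats, a rise of 1.82. Nars1 had 10.39, 10.39 and 10.36 in galactosamine rats, against 8.49, 8.58 and 8.75 in vehicle rats, a rise of 1.77. The galactosamine rats scattered by less than 0.1 for Nars1, and no value overlapped for either gene. Wars1, the tryptophan enzyme, had 8.16, 8.74 and 8.10 in galactosamine rats, against 6.74, 6.79 and 6.56 in vehicle rats (1.64 ± 0.13). Iars1 had 8.92, 9.45 and 8.98 in galactosamine rats, against 7.69, 7.70 and 7.65 in vehicle rats (1.44 ± 0.17). Yars1, Gars1, Vars1 and Kars1 rose by 1.38, 1.30, 1.18 and 1.15, and the called rises of Farsb, Hars1, Farsa, Mars1 and Aars1 were 0.71, 0.58, 0.41, 0.38 and 0.34. Farsa and Farsb encode the subunits of the phenylalanine enzyme, and both rose.

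Cytosolic genes that stayed out of the rise were Lars1, Qars1, Tars1 and Eprs1. Eprs1, the bifunctional glutamate and proline enzyme, fell by 0.33, with groups that overlapped. Lars1, for leucine, changed by 0.18 (95% interval -0.04 to 0.40), Qars1, for glutamine, by -0.10 (-0.31 to 0.11) and Tars1, for threonine, by -0.30 (-0.67 to 0.06); none of these was called. Eprs1, Lars1 and Qars1 belong to the multisynthetase complex, a particle in which several cytosolic synthetases are held together. Of 7 measured members of the complex 4 rose and 1 fell, with a median change of 0.38, and of the 12 other cytosolic genes 11 rose and none fell, with a median of 1.24. Rars1, Iars1, Kars1 and Mars1 were the 4 complex members that rose, so membership did not separate the genes fully. By catalytic fold, 7 of 10 class I and 8 of 9 class II cytosolic genes rose, with medians of 1.28 and 0.71.

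**Figure D3:**
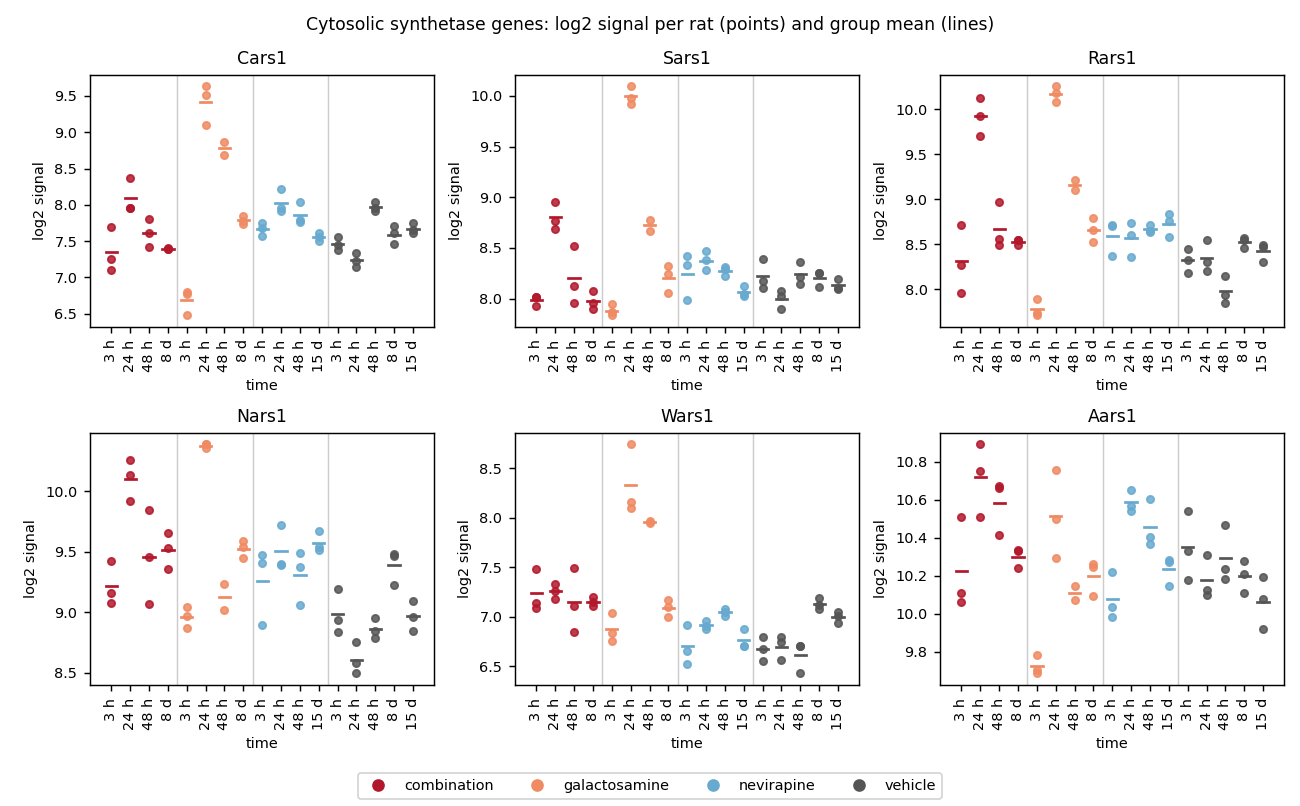
Log2 signal of 6 cytosolic synthetase genes in each rat (points) with group means (lines), by treatment and time. Cars1, Sars1, Rars1 and Nars1 are highest in galactosamine rats at 24 h, and Cars1 and Aars1 are lowest in galactosamine rats at 3 h.

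Mitochondrial genes split at 24 h. Yars2, for tyrosine, had 8.02, 7.92 and 8.64 in galactosamine rats, against 6.86, 6.94 and 6.99 in vehicle rats, a rise of 1.27 ± 0.16. Cars2, for cysteine, had 5.56, 5.37 and 6.07 in galactosamine rats, against 6.72, 6.90 and 6.53 in vehicle rats, and fell by 1.05 ± 0.14. Iars2 had 6.62, 6.65 and 6.85 in galactosamine rats, against 7.44, 7.89 and 7.46 in vehicle rats, and fell by 0.89. For cysteine and isoleucine the cytosolic gene thus rose and the mitochondrial gene fell in the same livers, while for tyrosine and histidine both rose (Hars2 by 0.63). Fars2 and Sars2 fell by 0.54 and 0.38, and Wars2 rose by 0.31. The cytosolic mean exceeded the mitochondrial mean by 2.56 to 2.79 in galactosamine rats and by 1.62 to 1.65 in vehicle rats, a difference that depends on the probe sets and is read only between groups. Hepatocyte markers had mean levels of 12.93 to 13.01 in galactosamine rats and 13.03 to 13.08 in vehicle rats, with 2 of 11 higher and 5 lower, and macrophage markers rose in 3 of 10 (7.86 to 8.10, against 7.10 to 7.20); their part was not tested.

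**Figure D4:**
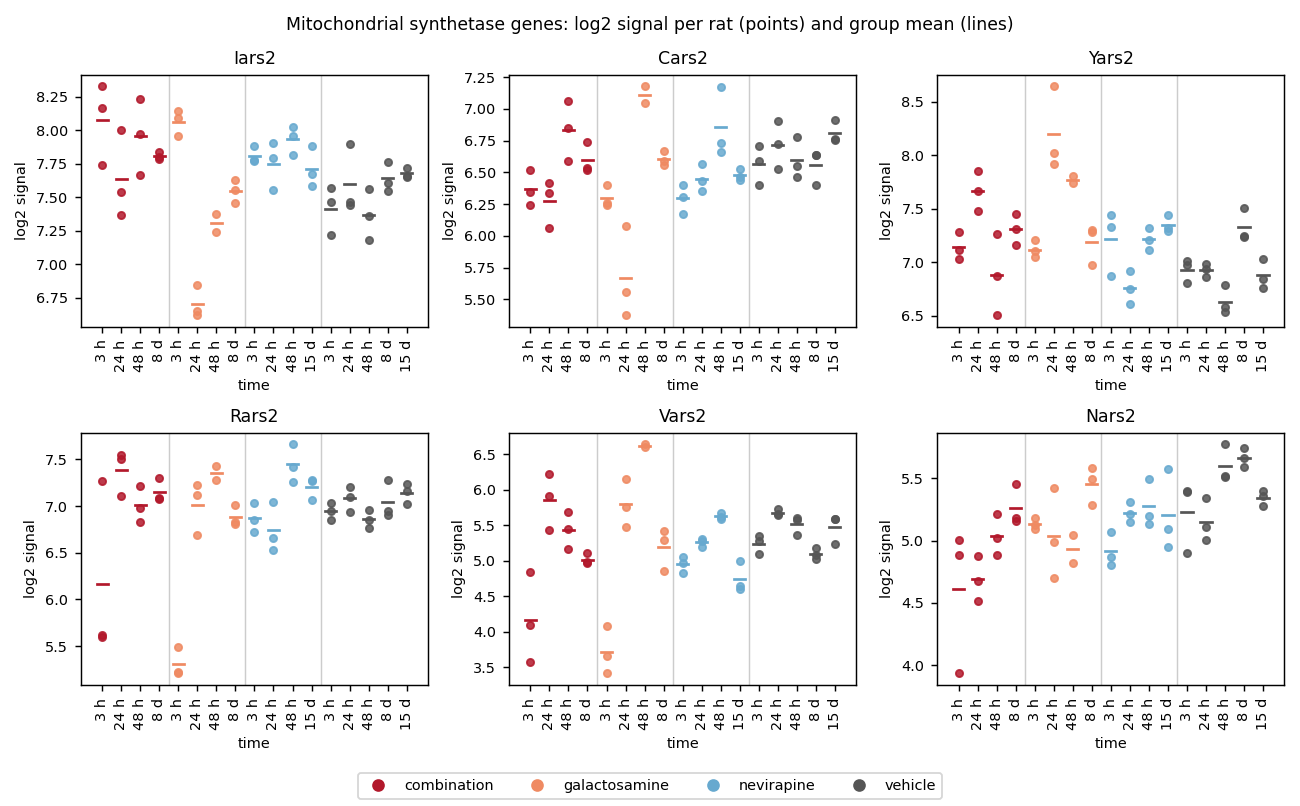
Log2 signal of 6 mitochondrial synthetase genes in each rat (points) with group means (lines), by treatment and time. Iars2 and Cars2 are lowest in galactosamine rats at 24 h, Yars2 is highest there, and Rars2 and Vars2 are lowest in galactosamine rats at 3 h.

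Second probe sets bear on these changes where the array has them. At 24 h after galactosamine, 11 of the 12 other probe sets above background that belong to called genes moved the same way as the one used. The 2 such probe sets of Cars1 were 1.19 and 1.93 higher, and that of Vars1 was the exception, at -0.16 against 1.18. At 3 h 5 of 6 moved the same way.

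At 48 h, with 2 galactosamine rats, 15 genes rose and 2 fell, against backgrounds of 24.9% and 14.5%. Wars1 had 7.97 and 7.95 in galactosamine rats, against 6.71, 6.71 and 6.43 in vehicle rats, a rise of 1.34 ± 0.15. Rars1 had 9.11 and 9.22 in galactosamine rats, against 8.14, 7.94 and 7.85 in vehicle rats (1.18). Vars2, lowest at 3 h, had 6.60 and 6.64 in galactosamine rats, against 5.57, 5.60 and 5.37 in vehicle rats, so that the same gene that lay under background was now 1.11 higher. Yars2 and Vars1 rose by 1.14 and 1.04, Cars1 and Farsa by 0.80 each, and Cars2, low at 24 h, rose by 0.51. The falls were Nars2 (-0.66) and Wars2 (-0.44).

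The second probe sets disagreed at 48 h. Only 2 of 8 moved the same way as the probe set used. With a gene's probe sets averaged, the changes of Cars1, Kars1, Mars1, Gars1 and Farsb came to 0.03, 0.07, 0.11, 0.30 and 0.29 and none of them was called. Wars1 and Vars1, which also have a second probe set, kept a call at 0.87 and 0.45. Their second probe sets alone changed by 0.39 and -0.15, so that of Vars1 did not show its rise. Rars1, Vars2, Yars2 and Farsa have 1 probe set and were not put to this test. The GAPDH difference was 0.13 to 0.14 in galactosamine rats and 0.48 to 0.74 in vehicle rats at this time. With it as a covariate 15 genes were called, all rises. All 10 measured macrophage markers rose here (mean levels 9.08 to 9.24, against 6.70 to 7.93); their part was not tested. With cyclic loess scaling 14 genes rose and 4 fell.

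By 8 d after galactosamine alone no synthetase gene was called by limma, at an adjusted or an unadjusted p under 0.05, and only 0.00703% of all genes rose and 0.0281% fell. Changes ran from -0.21 to 0.24. The smallest p-values were those of Yars1 and Cars1. Yars1 had 8.44, 8.22 and 8.34 in galactosamine rats, against 8.02, 7.99 and 8.35 in vehicle rats, groups that overlapped (0.21, adjusted p = 0.914). Cars1 had 7.84, 7.74 and 7.77 in galactosamine rats, against 7.45, 7.61 and 7.71 in vehicle rats, groups that lay next to each other (0.19, adjusted p = 0.935).

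Combination rats 3 h after galactosamine had 5 rises and 4 falls, against backgrounds of 15.2% and 17.4%. All 4 falls were mitochondrial. Vars2 had 4.09, 3.58 and 4.84 in combination rats, against 5.35, 5.10 and 5.28 in vehicle rats, with 2 of the 3 combination values under background. Rars2 had 5.62, 5.60 and 7.27 in combination rats, against 6.85, 6.95 and 7.03 in vehicle rats, so 1 rat was above all vehicle rats and the other two were far below them. Iars2 had 8.16, 8.33 and 7.74 in combination rats, against 7.46, 7.22 and 7.57 in vehicle rats, and rose by 0.66. Wars1, Kars1, Hars1 and Lars1 rose by 0.57, 0.52, 0.46 and 0.29, and Nars2 and Aars2 fell by 0.62 and 0.36. Of 4 second probe sets of called genes 1 moved the same way. Macrophage markers rose in 9 of 10, with mean levels of 9.01 to 9.21 in combination rats and 6.74 to 7.72 in vehicle rats, and their part was not tested.

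At 24 h the cytosolic genes rose in combination rats too. Of 19, 15 rose and none fell, with a median of 0.56, and of 13 mitochondrial genes 1 rose and 3 fell. The 16 rises and 3 falls stand against backgrounds of 20.7% and 16%. Rars1 had 9.93, 9.71 and 10.13 in combination rats, against 8.31, 8.55 and 8.21 in vehicle rats, a 2.97-fold rise (1.57 ± 0.14, adjusted p = 1.91e-11). Nars1 had 10.14, 9.92 and 10.25 in combination rats, against 8.49, 8.58 and 8.75 in vehicle rats and was 2.82-fold higher. Yars1 had 9.17, 9.40 and 9.22 in combination rats, against 8.01, 8.21 and 8.23 in vehicle rats (1.11 ± 0.13). None of the values of these genes overlapped between the groups.

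Other cytosolic rises at 24 h were smaller. Gars1 had 9.67, 9.46 and 9.81 in combination rats, against 8.63, 8.82 and 8.53 in vehicle rats. Cars1 had 7.96, 7.95 and 8.37 in combination rats, against 7.15, 7.23 and 7.34 in vehicle rats, a rise of 0.86, and Kars1, Iars1 and Sars1 rose by 0.84, 0.83 and 0.80. The mitochondrial rise was again Yars2 (0.74), and Nars2, Cars2 and Fars2 fell by 0.46, 0.45 and 0.36. The GAPDH difference averaged 0.24 in combination rats and 0.47 in vehicle rats, and with it as a covariate 16 genes rose and 1 fell, without Nars2 and Fars2. Macrophage markers were higher than in vehicle rats in 9 of 10 genes (mean levels 8.47 to 8.73, against 7.10 to 7.20), and their part was not tested.

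Fewer genes differed at 48 h in combination rats: 7 rose and 2 fell, against 10.2% and 5.77% of all genes. Eprs1, which had not risen at 24 h, had 10.73, 10.94 and 11.18 in combination rats, against 10.19, 10.39 and 10.17 in vehicle rats (0.70 ± 0.11). Rars1 had 8.97, 8.49 and 8.56 in combination rats, against 8.14, 7.94 and 7.85 in vehicle rats (0.69). Nars1 had 9.84, 9.46 and 9.06 in combination rats, against 8.95, 8.84 and 8.78 in vehicle rats (0.60). These 3 genes did not overlap between groups, though the combination rats were spread. Cars1 was lower, with 7.61, 7.80 and 7.42 in combination rats, against 7.96, 8.04 and 7.92 in vehicle rats (-0.36, adjusted p = 0.0492), and changed by 0.02 with all vehicle rats as 1 control. Without rat 70, whose cytosolic mean of 8.65 was above the 8.22 and 8.33 of the other rats, 3 genes were called in place of 9. Macrophage markers rose in 9 of 10 genes in these rats, with mean levels of 8.21 to 9.18 in combination rats and 6.70 to 7.93 in vehicle rats. Mean levels of hepatocyte markers were 12.78 to 12.89 in combination rats and 12.96 to 13.03 in vehicle rats. The part of these markers was not tested. The GAPDH difference was 0.29 to 0.35 in combination rats and 0.48 to 0.74 in vehicle rats, and with it as a covariate 6 genes rose and none fell.

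At 8 d in combination rats, when stellate cell and myofibroblast markers had risen in 7 of 10 genes (mean levels 7.64 to 7.97, against 6.51 to 6.87 in vehicle rats at 15 d), 3 synthetase genes rose and 3 fell, against 13.1% and 11.7% of all genes. Nars1 had 9.53, 9.65 and 9.36 in combination rats, against 8.96, 9.10 and 8.84 in vehicle rats (0.55). Sars2 had 5.97, 5.70 and 5.74 in combination rats, against 6.32, 6.33 and 6.37 in vehicle rats (-0.54 ± 0.10, adjusted p = 8.89e-05). Iars1 and Yars2 rose by 0.50 and 0.43, and Aars2 and Ears2 fell by 0.40 and 0.37. Against vehicle rats at 8 d, limma called 0 synthetase genes. There the changes of Iars1, Yars2 and Aars2 came to -0.04, -0.02 and 0.03 and that of Nars1 to 0.12, while Ears2 and Sars2 stayed lower without a call, at -0.35 (adjusted p = 0.0952) and -0.28 (adjusted p = 0.0553). Vehicle rats at 8 d had 9.23, 9.48 and 9.47 for Nars1, which overlap the combination rats. The call at 8 d thus depends on the vehicle group. Against vehicle rats at 15 d, 3 genes were called without vehicle rat 13 or 15 or combination rat 87, and 2 without combination rat 84.

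Combination rats were next set against galactosamine rats of the same time, which asks what a course of nevirapine changed at the same galactosamine dose. At 3 h combination rats were higher in 7 synthetase genes and lower in 1, against backgrounds of 10.6% and 7.06%. Cars1 had 7.25, 7.11 and 7.69 in combination rats and 6.80, 6.48 and 6.78 in galactosamine rats (0.66 ± 0.13). Aars1 had 10.06, 10.11 and 10.51 in combination rats and 9.78, 9.70 and 9.69 in galactosamine rats (0.50). The fall of Cars1 and Aars1 after galactosamine alone was thus smaller with nevirapine. Rars2, Rars1, Yars1, Eprs1 and Wars1 were higher by 0.85, 0.53, 0.45, 0.44 and 0.36, and Nars2 was lower by 0.52. Without rat 63, which had the highest combination value of each of these 7 higher genes, 2 genes were higher and 1 lower, and with only the 2 groups in the fit no gene was called. Macrophage markers were higher in 6 of 10 genes (mean levels 9.01 to 9.21 in combination rats and 8.08 to 8.24 in galactosamine rats) and T and NK cell markers in 6 of 10 (5.15 to 5.60 and 4.65 to 4.83), and their part was not tested.

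At 24 h 4 genes were higher in combination rats and 9 lower. Over all genes lower ones were also the more frequent, with 16.2% higher and 21.6% lower. Cars1 had 7.96, 7.95 and 8.37 in combination rats and 9.51, 9.64 and 9.09 in galactosamine rats, 2.49-fold lower (-1.32 ± 0.13, adjusted p = 1.68e-10). Sars1 had 8.77, 8.69 and 8.95 in combination rats and 9.98, 9.92 and 10.10 in galactosamine rats (-1.20 ± 0.11). Wars1 had 7.34, 7.18 and 7.27 in combination rats and 8.16, 8.74 and 8.10 in galactosamine rats (-1.08 ± 0.13). These 3 rises after galactosamine were cut by more than the spread between rats. Vars1, Iars1, Yars2, Hars2, Wars2 and Gars1 were lower by 0.78, 0.61, 0.53, 0.40, 0.34 and 0.32. Other probe sets above background of Cars1, Wars1, Hars2, Wars2 and Gars1 were lower in combination rats too. That of Vars1 was higher, at 4.58 in combination rats against 4.47 in galactosamine rats.

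Other differences at 24 h were smaller or ran the other way. Rars1 differed by -0.25 between combination and galactosamine rats (95% interval -0.53 to 0.03), Nars1 by -0.27 (-0.57 to 0.02) and Yars1 by -0.27 (-0.52 to -0.01), and none of these was called. Iars2 had 7.37, 8.00 and 7.54 in combination rats and 6.62, 6.65 and 6.85 in galactosamine rats (0.93 ± 0.14), and Cars2 was 0.60 higher, so that the mitochondrial falls were smaller as well. Eprs1 and Sars2 were each 0.37 higher. Macrophage markers were higher in combination rats in 7 of 10 genes and lower in 1, endothelial markers higher in 4 of 6, and their part was not tested.

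**Figure D5:**
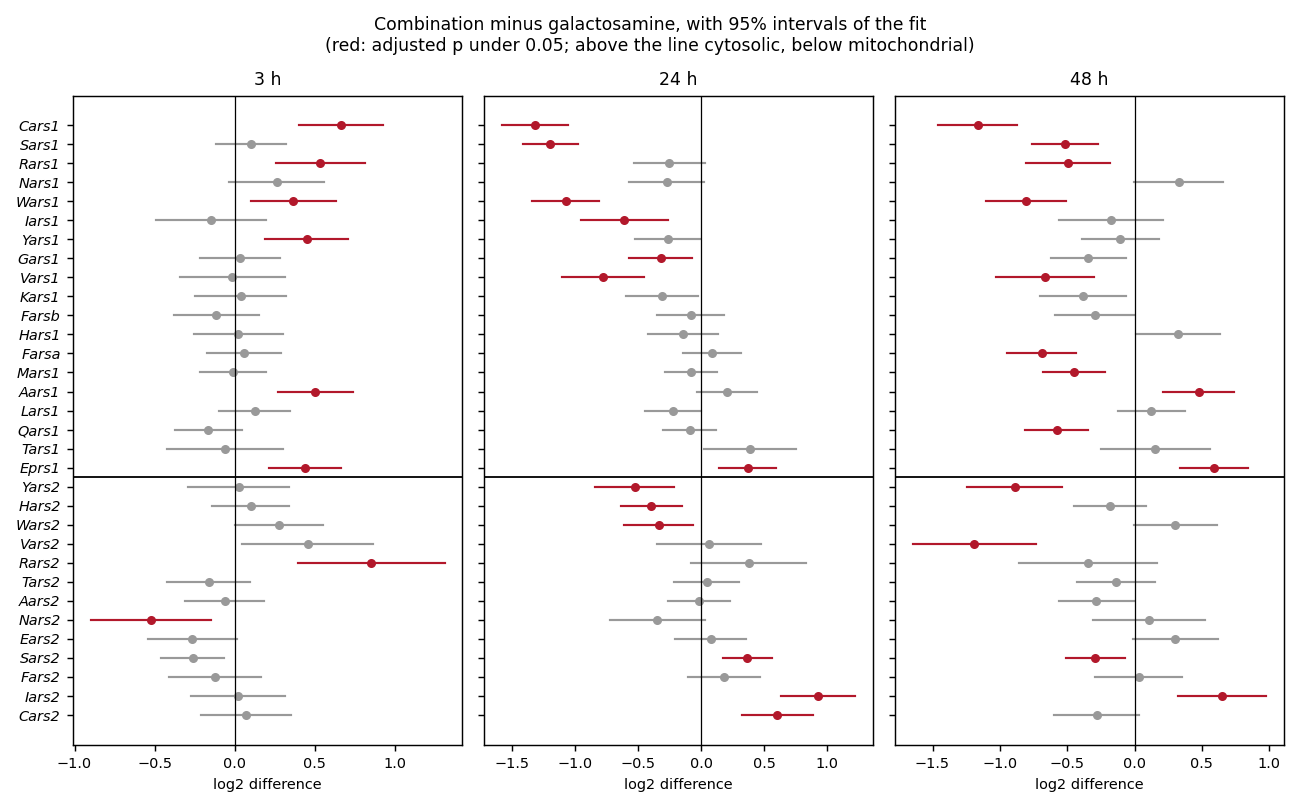
Log2 difference of each synthetase gene (rows) between combination and galactosamine rats at 3 h, 24 h and 48 h, with the 95% interval of the fit and red where limma's adjusted p was under 0.05. Cars1 lies right of 0 at 3 h (0.66) and far left of it at 24 h (-1.32) and 48 h (-1.17), while Iars2 lies right of 0 at 24 h and 48 h. Other probe sets of Cars1, not drawn, did not show the difference at 48 h.

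At 48 h combination rats were higher in 3 genes and lower in 11, against 12.1% and 17.1%; with cyclic loess scaling the counts were 5 and 10. Vars2 had 5.45, 5.68 and 5.17 in combination rats and 6.60 and 6.64 in galactosamine rats (-1.19 ± 0.23). Cars1 had 7.61, 7.80 and 7.42 in combination rats and 8.87 and 8.69 in galactosamine rats (-1.17 ± 0.15). Its other probe sets above background did not show this difference. They averaged 7.16 and 5.97 in combination rats and 7.20 and 5.93 in galactosamine rats. Yars2, Wars1, Farsa and Vars1 were lower by 0.89, 0.81, 0.69 and 0.66. The other probe set of Wars1 was lower too, at 5.16 in combination rats against 5.50 in galactosamine rats. That of Vars1 was higher, at 4.80 against 4.50. Qars1, which galactosamine alone had raised by 0.45, was lower by 0.58. The 3 higher genes were Iars2 (0.65), Eprs1 (0.59) and Aars1 (0.47).

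At 8 d the 2 treatments were compared as the difference of their effects on their own vehicle groups. Synthetase genes higher in combination rats numbered 0 of 32 and lower ones 2, against 5.87% and 5.34% of all genes. Sars2 changed by -0.67 ± 0.14 (adjusted p = 0.00145) and Aars2 by -0.54 ± 0.17 (adjusted p = 0.0382), both mitochondrial. Leaving out combination rat 73 or 84, vehicle rat 13 or 14 at 15 d, or any of 2 galactosamine and 2 vehicle rats at 8 d, left 1 call, and a fit with only these groups called 4 genes. Set against nevirapine rats at 15 d, which had the same oral dosing, combination rats at 8 d were higher in 1 gene and lower in 1, against 9.31% and 3.09%. Hars1 had 6.89, 6.96 and 7.04 in combination rats and 7.39, 7.52 and 7.41 in nevirapine rats (-0.48). Its other probe set did not show this, with means of 6.28 in combination rats and 6.23 in nevirapine rats. Wars1 had 7.11, 7.20 and 7.15 in combination rats and 6.88, 6.71 and 6.71 in nevirapine rats (0.39). The means of its other probe set were 5.19 and 5.07. Wars1 in human cells is also known as a target of interferon gamma. With cyclic loess scaling 0 genes were higher and 2 lower, and without nevirapine rat 44 neither gene was called, while leaving out rats 43, 45, 73, 84 or 87 kept 1.

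Nevirapine alone was then set against vehicle, where fewer of all genes were called than at 24 h after galactosamine. At 3 h 3 rose and 1 fell, against 7.59% and 7.48% of all genes. Iars1 had 7.97, 8.46 and 8.24 in nevirapine rats, against 7.84, 7.69 and 7.65 in vehicle rats (0.49). Hars2 had 6.55, 6.62 and 6.71 in nevirapine rats, against 6.12, 6.15 and 6.26 in vehicle rats (0.45). Hars1 rose by 0.46 and Aars2 fell by 0.44. Of 2 second probe sets of called genes above background, that of Hars1 rose by 0.70 and that of Hars2 changed by -0.01. With all vehicle rats as the control 1 rose and 3 fell, and 2 genes were called without vehicle rat 1 or 2 or nevirapine rat 32 or 33.

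At 24 h of nevirapine 7 cytosolic genes rose, and 1 cytosolic and 1 mitochondrial gene fell, against 4.55% and 6.63% of all genes. Nars1 had 9.72, 9.39 and 9.40 in nevirapine rats, against 8.49, 8.58 and 8.75 in vehicle rats, 1.86-fold higher (0.90 ± 0.15, adjusted p = 5.77e-05). Cars1 had 7.95, 8.21 and 7.91 in nevirapine rats, against 7.15, 7.23 and 7.34 in vehicle rats (0.79 ± 0.13). Tars1, which galactosamine had not raised, had 9.53, 9.35 and 9.16 in nevirapine rats, against 8.69, 8.80 and 8.74 in vehicle rats (0.60 ± 0.18). None of these groups overlapped. Yars1 had 9.01, 8.61 and 8.63 in nevirapine rats, against 8.01, 8.21 and 8.23 in vehicle rats, and Aars1, Sars1 and Mars1 rose by 0.41, 0.37 and 0.36. All of the genes that rose but Sars1 carry the Atf4 element, and Iars1 is the carrier that was not called. Over the 17 cytosolic genes with a promoter window, the median change was 0.60 in the 7 with the element and 0.19 in the 10 without it at 24 h of nevirapine. The same split gave 1.38 and 0.65 at 24 h of galactosamine and 0.83 and 0.46 at 24 h of the combination, comparisons that share their vehicle rats. The sets overlapped: at 24 h of galactosamine changes ran from -0.305 to 2.176 with the element and from -0.325 to 2.001 without it. Split by CACGTG, the medians with and without it were 0.18 and 0.30 at 24 h of nevirapine. They were 0.71 and 0.87 at 24 h of galactosamine and 0.54 and 0.52 at 24 h of the combination. The part of either motif was not tested. At other times the order varied: with and without the Atf4 element the medians were 0.38 and 0.59 at 48 h of galactosamine, 0.20 and 0.25 at 48 h of the combination, and 0.16 in both sets at 48 h of nevirapine. At 3 h they were -0.07 and 0.06 for galactosamine, -0.08 and 0.03 for the combination and 0.11 and 0.02 for nevirapine. Qars1 fell by 0.35 and Tars2 by 0.42. Macrophage markers fell in 4 of 10 genes in these rats (mean levels 6.47 to 6.81, against 7.10 to 7.20), and their part was not tested. Without vehicle rat 4 only 3 genes were called, and without nevirapine rat 37 or 38 there were 5.

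At 48 h of nevirapine 7 genes rose and none fell, against 11% and 6.44%. Rars1 had 8.72, 8.65 and 8.64 in nevirapine rats, against 8.14, 7.94 and 7.85 in vehicle rats (0.69 ± 0.14). Yars2 had 7.32, 7.11 and 7.21 in nevirapine rats, against 6.78, 6.54 and 6.58 in vehicle rats (0.58), and Iars2 had 7.81, 8.02 and 7.96 in nevirapine rats, against 7.56, 7.36 and 7.18 in vehicle rats (0.56). Nars1, Wars1, Farsb and Eprs1 rose by 0.45, 0.43, 0.42 and 0.31. Of 3 second probe sets of these genes 0 moved the same way, and Eprs1 changed by -0.14 with the mean of all its probe sets. Without vehicle rat 12 there were 2 calls, without nevirapine rat 41 or 42 there were 4 and 3, and with the GAPDH difference as a covariate 4.

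At 15 d of nevirapine 3 genes rose and 1 fell, against 5.13% and 8.79%. Nars1 had 9.54, 9.67 and 9.52 in nevirapine rats, against 8.96, 9.10 and 8.84 in vehicle rats (0.61). Vars2 had 5.00, 4.60 and 4.65 in nevirapine rats, against 5.24, 5.59 and 5.58 in vehicle rats (-0.72). Hars1 and Yars2 rose by 0.56 and 0.47. Vehicle rats at 8 d were higher than those at 15 d in both Nars1 and Hars1. They had 9.23, 9.48 and 9.47 for Nars1, below all nevirapine rats. For Hars1 they had 7.28, 7.09 and 7.46, which overlap the 7.39, 7.52 and 7.41 of nevirapine rats. Against vehicle rats at 8 d, Yars2 in combination rats at 8 d changed by -0.02. With all vehicle rats as 1 control 4 genes rose and 3 fell. Nevirapine at 15 d was not tested against vehicle rats at 8 d alone. Mean levels of macrophage markers were 7.28 to 7.45 in nevirapine rats and 7.77 to 8.02 in vehicle rats, those of hepatocyte markers 12.787 to 12.847 and 12.962 to 12.998, and the GAPDH difference 0.20 to 0.21 and 0.03 to 0.12; the part of the markers was not tested, and with the GAPDH difference as a covariate 3 genes rose and 1 fell. Without vehicle rat 15 or nevirapine rat 44 or 45, the 2 calls left were rises, and a fit with only these 2 groups called 15 genes, 6 higher and 9 lower.

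The effect of each treatment was then compared between times, as the difference of the changes against vehicle. After galactosamine alone the 24 h effect exceeded the 3 h effect in 19 genes and was below it in 4, against 27.6% and 24.3% of all genes. The difference was 2.95 ± 0.18 for Cars1, 2.36 for Rars1 and 2.34 for Sars1, and among mitochondrial genes 1.57 for Rars2 and -1.54 for Iars2. Vars2 differed by 1.65, a value that counts its 3 h signals under background as measured. The 48 h effect exceeded the 24 h effect in 6 genes and was below it in 11, against 19.3% and 17.2%. Sars1, Nars1 and Cars1 differed by -1.52, -1.50 and -1.37 and Cars2 by 1.56 ± 0.21. For Cars1, vehicle rats rose between 24 h and 48 h by more than galactosamine rats fell, and the value holds both shifts. Cytosolic genes made up 9 of the 11 lower ones.

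In combination rats the 24 h effect exceeded the 3 h effect in 13 genes and was below it in 2, against 16.1% and 12.6%. Rars1 differed by 1.57 ± 0.19, Nars1 by 1.26 and Yars1 by 1.04. The 48 h effect exceeded the 24 h effect in 2 genes and was below it in 6, against 7.3% and 7.33%; Cars1, Nars1, Rars1 and Sars1 differed by -1.22, -0.90, -0.88 and -0.84, while Eprs1 and Cars2 were higher by 0.66 and 0.68. Without rat 70, 2 were higher and 11 lower. For Cars1, the rise of vehicle rats between 24 h and 48 h was again larger than the fall of the treated rats.

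Genes that work beside the synthetases were counted from fixed lists. At 24 h 30.2% of all genes rose and 28.5% fell in galactosamine rats, and 20.7% rose and 16% fell in combination rats, and the counts are to be read against these shares. The 3 cofactors of the multisynthetase complex, Aimp1, Aimp2 and Eef1e1, all rose at 24 h in galactosamine rats, by 1.29, 1.39 and 2.22, and in combination rats, by 1.09, 1.16 and 1.29. Of 29 cytosolic translation factors 26 rose and none fell at 24 h in galactosamine rats, with a median of 0.88, and 23 rose and none fell in combination rats, with a median of 0.58. Eif2s1, the alpha subunit of eIF2, rose by 2.04 and 1.62. Of 20 genes of mitochondrial translation and transcription 9 rose and 4 fell in galactosamine rats, where Trmt5, a tRNA methyltransferase, rose by 1.65 and Lrpprc, which stabilises mitochondrial messages, fell by 1.31. At the same time 2 of 11 charging accessory genes rose and 4 fell, among them Sepsecs, which makes selenocysteine on its tRNA, by 0.99.

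Part of the 29 genes of the Atf4 amino acid response was called at each of these times. At 3 h after galactosamine 2 rose and 8 fell, against 14.9% and 18% of all genes, with Atf4 itself at -0.96 and the amino acid carriers Slc1a4 and Slc38a2 at -1.93 and -1.83. At 24 h 19 rose and 4 fell, with a median of 1.08. Psat1, which makes serine, rose by 4.13, Asns, which makes asparagine, by 3.49, Trib3 by 3.08 and Ddit3 by 2.53, while Cth, which makes cysteine, fell by 2.51. In combination rats at 24 h 10 rose and 4 fell, with Asns and Psat1 at 2.45 and 2.07. Combination rats were lower than galactosamine rats in 15 of the 29 genes and higher in 1, against 21.6% and 16.2% of all genes, with Trib3, Sesn2 and Psat1 at -2.26, -2.22 and -2.06 and Cth at 2.25. At 24 h of nevirapine 7 rose and 3 fell, against 4.55% and 6.63%, with Psat1 at 1.40 and Chac1, which breaks down glutathione, at -1.43. Of the 4 kinases that phosphorylate eIF2, Eif2ak2 and Eif2ak3 rose by 1.24 and 1.13 at 24 h of galactosamine and Eif2ak1 and Eif2ak4 fell by 0.78 and 0.42.

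Over the 17 group means the synthetase genes varied by different amounts. Vars2 was lowest in galactosamine rats at 3 h, where it lay under background, and highest at 48 h, so its range has no measured size. Vars2 aside, Cars1 ranged most, by 2.73 between galactosamine rats at 3 h and at 24 h, followed by Rars1 with 2.39 between the same groups. Lars1 ranged least, by 0.39. As a description over 17 group means, with groups that share treatments and vehicle, each gene was correlated with the mean cytosolic profile. For a cytosolic gene, that mean left the gene itself out. The correlation was highest for Gars1 (0.95), Rars1 (0.93), Yars1 (0.91) and Sars1 (0.91). It was -0.03 for Lars1 and -0.45 for Tars1. Among mitochondrial genes it was 0.81 for Yars2 and 0.69 for Hars2, and -0.71 for Fars2 and -0.63 for Iars2. Genes outside the family were ranked after symbols that begin with LOC or RGD were dropped. The 5 with the highest correlation were Tsr1 (0.97), Phlda2 (0.97), Pprc1 (0.97), Ddx18 (0.96) and Ccdc86 (0.96).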

How the data were processed

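RNA from 50 rat livers, 1 array per rat, was measured on Affymetrix rat arrays. The authors deposited 1 table of signals per probe set, which by their range and like medians are log2 values as RMA gives, and RMA and limma are named in the submitters' processing notes without versions. All 31099 probe sets were read as deposited, and no further scaling or filter on dim signals was applied. Of these, 20826 had 1 gene symbol, and each of 14217 genes was represented by its probe set of highest mean; 14 of the 32 synthetase genes have more than 1 probe set. RMA summarises probes per set, so a probe set far from a transcript's end can respond to RNA quality.

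Limma 3.58.1 in R 4.3.3 fitted 17 group means to the 50 arrays, with the spread of each gene pooled over groups. Benjamini-Hochberg adjustment of the eBayes p-values ran over 14217 genes. Standard errors and intervals come from that fit. The labels give separate rats and no batch. The fit was tested on simulated data. Motifs were searched in RefSeq windows (GRCr8) with Python 3.11.15 and pandas 2.3.3; the stretches of 1 of the 7 genes with a match are not reported here. The precision is limited by 2 or 3 arrays per group.

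The members and lists were chosen with earlier results of these data known. Any synthetase gene could be named. Values of every rat are given for up to 6 genes per comparison, from those with the largest called change and groups that do not overlap, or for genes with the smallest p; a few other members are named for their role, their promoter or their contrast between times. The examples from other lists were chosen after their values were seen. Alternatives were a fit with only the groups compared, a trended robust prior, the dimmest 40% dropped, a gene's probe sets averaged, cyclic loess, other vehicle controls, a direct difference at 8 d, each rat left out and, chosen after seeing the data, the GAPDH difference as a covariate and rats 31, 63 and 70 left out.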

Additional observations from a re-analysis of the deposited data

Results flagged for a closer look

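Effects that differed between times, by the contrast of the changes against vehicle in limma's fit, were as follows; no explanation was weighed. After galactosamine the effects at 24 h and at 3 h differed in 23 of the 32 synthetase genes, with 2.95 for Cars1, 2.36 for Rars1 and 2.34 for Sars1. Between 48 h and 24 h they differed in 17 genes, with 1.56 for Cars2, -1.52 for Sars1 and -1.50 for Nars1. In combination rats the effects at 24 h and at 3 h differed in 15 genes, with 1.57 for Rars1, 1.26 for Nars1 and 1.25 for Vars2, 2 of whose 3 combination values at 3 h lay under background. Between 48 h and 24 h they differed in 8 genes, with -1.22 for Cars1, -0.90 for Nars1 and -0.88 for Rars1. The Cars1 value includes a rise of vehicle rats between these times that was larger than the fall of combination rats. At 8 d the effects of the combination and of galactosamine differed in 2 genes, with -0.67 for Sars2 and -0.54 for Aars2. Groups of 2 or 3 rats are too small for a check for outlying rats.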

How the results depend on the processing

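No paired analysis was possible because every rat has its own number and no 2 groups share one. Of 1721 values of called member changes under 10 settings, 1542 kept direction and call, 174 kept direction and lost the call, and 5 changed sign: Eprs1 at 48 h of nevirapine with the mean of probe sets (-0.14), Cars1 at 48 h of the combination against all vehicle rats (0.0241), and Aars2, Iars1 and Yars2 in combination rats against vehicle at 8 d (0.0283, -0.041 and -0.0192). Counts of called members that moved by over 1.5 times were these; the cause was not tested. With only the groups compared in the fit, which leaves fewer samples, there were 4 calls in the combination at 3 h, 1 at 48 h, 1 at 3 h and 15 at 15 d of nevirapine, 0, 6, 5 and 4 in the combination against galactosamine at 3 h, 24 h, 48 h and 8 d, and 4 between 48 h and 24 h of the combination. With cyclic loess there were 3 at 48 h of nevirapine and 1 in the combination against galactosamine at 8 d. With all vehicle rats as 1 control there was 1 call at 8 d of galactosamine, 2 at 48 h and 7 at 15 d of nevirapine and 13 between 48 h and 24 h of the combination. With vehicle at 8 d as control the combination at 8 d had 0. With the GAPDH difference as a covariate 48 h of nevirapine had 4. Without rats 31, 63 and 70 there were 5 in the combination at 48 h, 8 at 15 d of nevirapine, 4 and 4 in the combination against galactosamine at 3 h and 8 d, and 13 between 48 h and 24 h of the combination. Leaving out each rat in turn gave 6 to 9, 14 to 17, 3 to 10 and 2 to 7 calls in the combination at 3 h, 24 h, 48 h and 8 d, and 9 to 12, 21 to 23, 14 to 17 and 0 to 0 in galactosamine. For nevirapine it gave 2 to 4, 3 to 9, 2 to 7 and 2 to 3 at 3 h, 24 h, 48 h and 15 d. In the combination against galactosamine it gave 3 to 9, 11 to 13, 11 to 16 and 1 to 2, and against nevirapine at 15 d 0 to 1. Between 24 h and 3 h, and between 48 h and 24 h, it gave 12 to 16 and 6 to 13 in the combination and 22 to 23 and 15 to 18 in galactosamine. The trended prior and leaving out the dimmest 40% of genes moved none of these counts by over 1.5 times. Array signals near background, as for Vars2 at 3 h, limit what folds can be given.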

Other observations

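A probe set outside the 32 genes carries 2 gene entries, both with the symbol Mars2, the mitochondrial methionine enzyme, and was left out because of its 2 entries. It had 3.70, 3.73 and 4.46 in galactosamine rats at 3 h, against 6.57, 6.62 and 6.27 in vehicle rats, so that 2 of the 3 galactosamine values lay under the background level of 4.37. Combination rats at 3 h had 5.57, 5.15 and 5.90. At 24 h it had 7.23, 8.20 and 7.49 in galactosamine rats, against 6.78, 6.39 and 6.66 in vehicle rats, and at 48 h 5.73 and 5.82, against 6.75, 6.65 and 6.64. These values follow the order of Rars2 and Vars2 at 3 h, and they were not tested.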
